A study of Mus musculus with 4 samples.

Results

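The proteasome genes described here are 44 of the 55364 genes listed for 4 RNA-seq libraries of mouse pachytene spermatocytes, the meiotic germ cells in mid-prophase. They are the protein-coding genes whose symbols start with Psma to Psmg and a digit, without the immune subunits Psmb8, Psmb9 and Psmb10 and without Psmc3ip, a recombination factor that only shares the prefix. Each had an expected count of at least 10 in at least 2 libraries, and all 44 reached 10 counts in all 4. The annotation held 54 matching symbols, of which 4 were not protein-coding, 4 were left out by name and 2 lay below the count minimum. Those 2 were Psmb11, with 0 counts in either KK library against 1 count in each WT library, and Psme2b, with 5 and 3 counts in the KK libraries against 0 in both WT libraries. By role, 8 members form the alpha ring and 7 the beta ring of the 20S core, 6 are ATPases and 3 other subunits of the 19S base, 8 belong to the 19S lid, 4 are activators, 1 is an inhibitor and 7 are assembly factors.

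Of the 4 libraries, 2 came from mice labelled as DDX4 homozygous knock-in, called KK in the sample titles, and 2 from wild-type (WT) mice. DDX4 is the germ-cell RNA helicase of the cytoplasmic germ granules, and the series title places the allele in a knock-in model built by combining tags. In both genotypes testes were digested with collagenase and then trypsin, the spermatocytes were separated by centrifugal elutriation, and total RNA was made into libraries without marking strand. The labels give no strain, age or number of animals per library, so p-values measure the spread between these libraries, which may be technical.

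The proteasome degrades proteins tagged with ubiquitin. Its 20S core is a barrel of stacked rings in which the outer alpha rings gate entry and the inner beta rings hold the proteolytic sites. The 19S particle caps the barrel: its lid removes ubiquitin, and its base unfolds the substrate with a ring of ATPases. Spermatocytes carry a form called the spermatoproteasome, in which the testis subunit Psma8 takes the place of its paralogue Psma7, and male mice without Psma8 are infertile. The activator Psme4 (PA200) is also abundant in testis, where it has been linked in mice to the breakdown of acetylated histones.

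The libraries held 19438570 and 17970207 expected counts in KK and 18156099 and 19246124 in WT. Ddx4 itself (chromosome 13, GRCm38, 112598333 to 112652475, minus strand) had 54.4 and 52.5 TPM (transcript abundance scaled for length and library total) in the KK libraries, against 265 and 273 TPM in the WT libraries. It was 5.05-fold lower in KK by edgeR's quasi-likelihood test (log2 fold change -2.34 ± 0.04 SE, adjusted p = 6.8e-27). Markers of the labelled cell type were abundant: the 12 pachytene markers found summed to 13042 and 12820 TPM in KK and 13516 and 13370 TPM in WT. Of these 12 markers, 1 was higher and 7 were lower in KK, Sycp3 and Piwil1 among the lower. Most of each sum was Ldhc, which had 9748 and 9459 TPM in KK and 9688 and 9534 TPM in WT and did not pass. The fractions also held RNA of other cells. Markers of round spermatids, the haploid cells that follow meiosis, summed to 18290.3 and 17783 TPM in KK and 20320 and 20174 TPM in WT, with 7 of the 13 higher and 5 lower in KK. The 7 markers of Leydig cells, the hormone-producing cells between the tubules, summed to 2405 and 2487 TPM in KK and 661 and 698 TPM in WT, nearly all of it Insl3, and 6 of the 7 were higher in KK. In bulk RNA, fewer cells of a type and less RNA per cell cannot be told apart.

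The members spanned more than 2 orders of magnitude in level. Psmc3, an ATPase of the 19S base, was the most abundant with 1082 and 1039 TPM in KK and 1023 and 1035 TPM in WT. The interferon-inducible activator subunit Psme2 was the least abundant, with 6.5 and 3.83 TPM in KK and 2.13 and 1.91 TPM in WT. The median member had 94.5 and 97.4 TPM in KK and 88.7 and 86.8 TPM in WT. Summed over all 44 members, proteasome transcripts made up 6704 and 6643 TPM in KK and 6544 and 6473 TPM in WT, so both KK libraries lay slightly above both WT libraries. The order of the members by TPM was nearly the same in every library: Spearman's rho over the 44 members was 0.998 between the KK libraries, 0.997 between the WT libraries and 0.990 to 0.993 across genotypes, given as a description since all values share a library's depth and scaling.

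**Figure D1:**
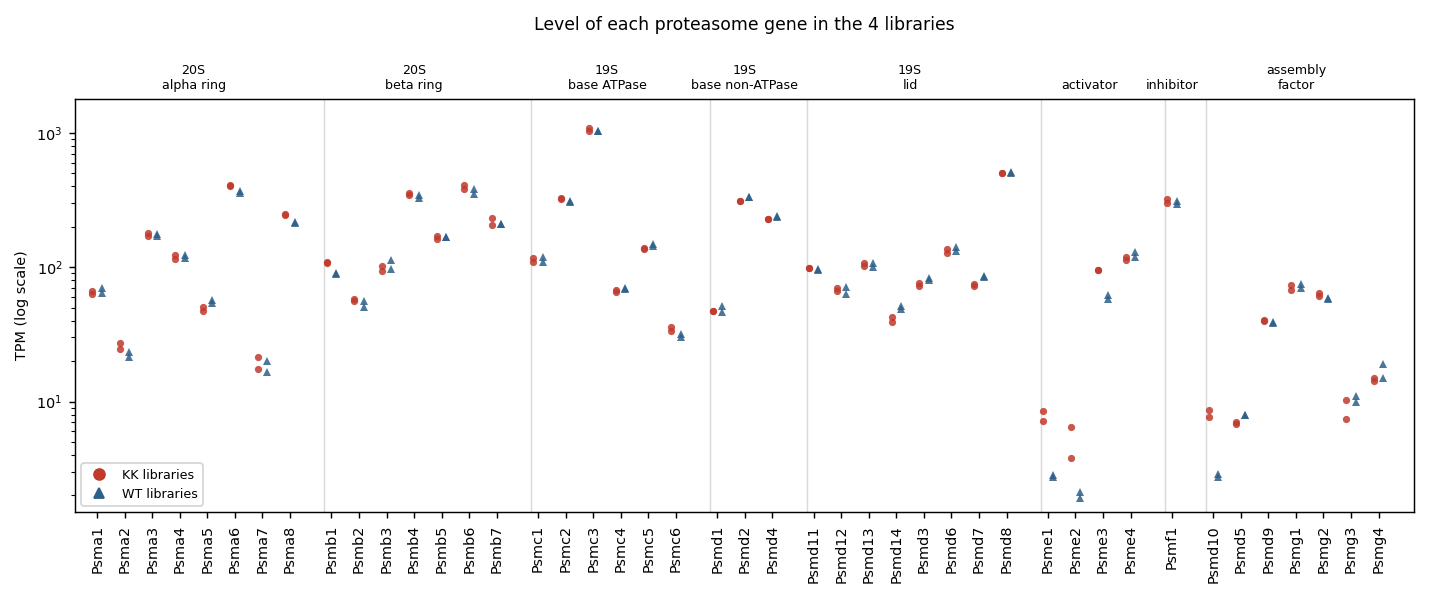
Level of each of the 44 proteasome genes in TPM (log axis), with the members in columns by role and 1 point per library, KK circles left of WT triangles. Levels differ within a role, among the base ATPases by up to 33.8-fold between Psmc3 and Psmc6, while the 4 points of a member mostly sit together. Psme1, Psme2, Psme3 and Psmd10 are the members whose KK points stand clearly above their WT points.

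Fold changes between genotypes were mostly small. Of the 44 members, 7 were higher in KK and 5 were lower (edgeR quasi-likelihood test, adjusted p under 0.05 over 16571 genes), and 32 did not pass. Across all genes tested, 22.0% were called higher, 21.7% lower and 43.7% in either direction, beside 15.9%, 11.4% and 27.3% of the members. The median log2 fold change was -0.02 for the members, with quartiles at -0.08 and 0.07. For all genes tested the median was 0.003, with quartiles at -0.24 and 0.43. In all, 40 of the 44 members changed by less than 0.32 on the log2 scale in either direction. A change of at least that size was seen in 9.09% of the members and in 47.5% of all genes tested. Those members were Psme1, Psme2 and Psmd10, which were higher, and Psmg4, at a log2 fold change of -0.36 ± 0.28 (edgeR adjusted p = 0.32).

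The members are abundant transcripts, so they were also set beside genes of at least 30 CPM (counts scaled to the library total with TMM factors) on average over the 4 libraries, a comparison chosen after the data had been seen. Of the 5539 genes that abundant, 61.3% were called in either direction, 18.8% higher and 42.5% lower, and 27.5% changed by at least 0.32 on the log2 scale. Of the 35 members that abundant, 9 (25.7%) were called, 4 higher and 5 lower in KK, and 0 changed by that much. The counts of calls moved with the library left out, those of higher members up as well as down, and such fits keep a single library in a genotype. The median log2 fold change of all members was then -0.03 without the first KK library and -0.027 without the second. Without the first and second WT library it was -0.011 and -0.021.

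**Figure D2:**
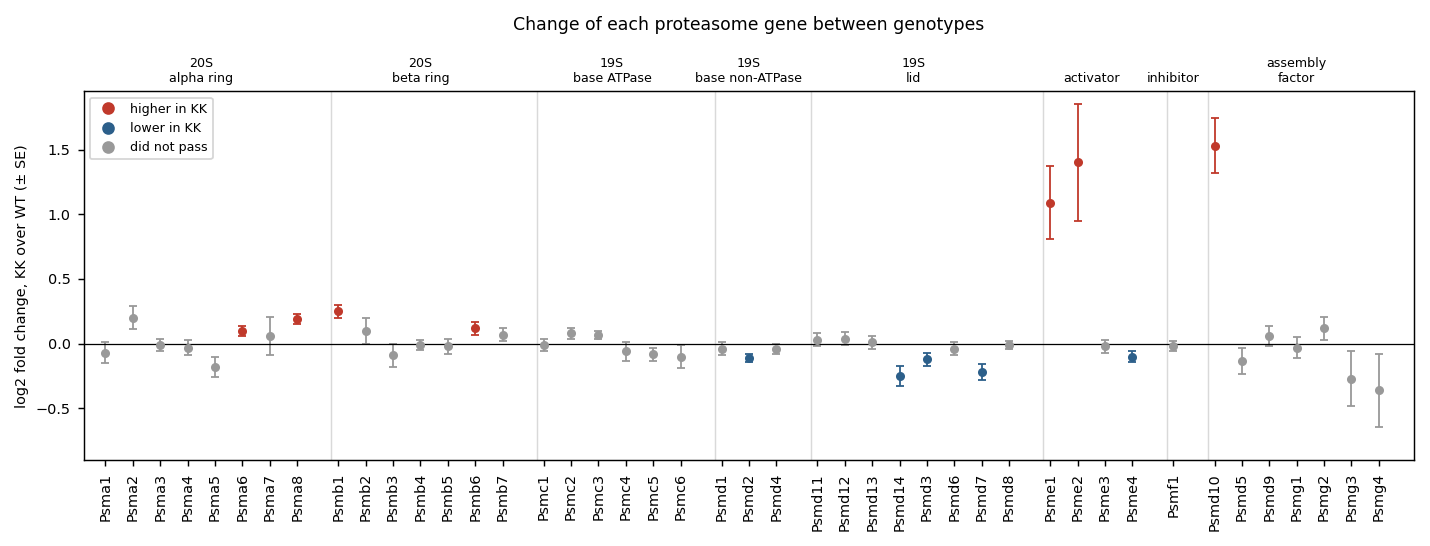
Log2 fold change of each member, KK over WT, with its standard error, grouped by role. Coloured points passed the test (7 higher and 5 lower in KK) and grey points did not. All 15 core and all 17 subunits of the 19S particle lie between -0.25 and 0.25, and Psme1, Psme2 and Psmd10 stand above 1.

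In the alpha ring, 2 of 8 members were higher in KK (25.0%, beside 22.0% of all genes tested) and 0 were lower. Psma8 (chromosome 18, GRCm38, 14706151 to 14762301, plus strand), the spermatoproteasome subunit, had 245 and 249.6 TPM in the KK libraries, against 218 and 212 TPM in the WT libraries. The groups did not overlap, and the change was modest: on the TMM scale it averaged 259.8 ± 2.98 CPM in KK and 227.6 ± 3.25 CPM in WT (SD, n = 2 each), a 1.14-fold difference (log2 fold change 0.19 ± 0.04 SE, edgeR adjusted p = 0.00013). Psma8 passed under all 12 alternative settings, with log2 fold changes of 0.17 to 0.27. Its constitutive paralogue Psma7 was the lowest of the alpha subunits, with 21.6 and 17.5 TPM in KK and 16.6 and 20.1 TPM in WT. These groups overlapped, and Psma7 did not pass (log2 fold change 0.06 ± 0.15 SE, edgeR adjusted p = 0.77), on 156 to 207 counts in KK and 146 to 182 counts in WT.

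Psma8 transcripts therefore outnumbered Psma7 transcripts 11.3 and 14.3 to 1 in the KK libraries and 13.1 and 10.6 to 1 in the WT libraries. As a share of the pair, Psma8 held 91.9% and 93.5% of the TPM in KK and 92.9% and 91.4% in WT, so the libraries of both genotypes interleaved. An exact permutation test of 2 against 2 libraries cannot give a p below 0.333, and none is reported. The coding sequences of Psma8 and Psma7 were identical at 74.9% of 744 aligned bases, the longest identical run being 17 bases, and no transcript of either matched the other at 90% identity over 300 bases. Most Psma8 signal came from its full-length coding transcript Psma8-201, with 93.7% and 94.6% of the gene's TPM in KK and 95.9% and 95.5% in WT.

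The other alpha subunit that passed was Psma6, also the most abundant of the ring, with 411 and 403 TPM in KK and 370.0 and 359 TPM in WT. Its groups did not overlap, the difference was 1.07-fold (log2 fold change 0.10 ± 0.04 SE, edgeR adjusted p = 0.048), and the call was lost under 6 of the 12 alternatives. The remaining 5 alpha subunits did not pass. Psma2 had 27.4 and 24.8 TPM in KK and 23.5 and 21.3 TPM in WT (edgeR adjusted p = 0.063). Psma5 had 47.5 and 50.1 TPM in KK and 53.9 and 56.7 TPM in WT (edgeR adjusted p = 0.088). In both the libraries did not overlap between genotypes, although neither difference passed. Psma1, Psma3 and Psma4 overlapped between the genotypes, with log2 fold changes of -0.07 to -0.01.

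In the beta ring, 2 of 7 members were higher in KK (28.6%, beside 22.0% of all genes tested) and 0 were lower. Psmb1, a structural beta subunit, had 108 and 109 TPM in the KK libraries, against 91.0 and 89.0 TPM in the WT libraries. Its KK libraries both lay above its WT libraries, at 109.3 ± 2.04 CPM in KK and 91.71 ± 1.77 CPM in WT (SD, n = 2 each; log2 fold change 0.25 ± 0.05 SE, edgeR adjusted p = 8.1e-05), and it passed under all 12 alternatives. Psmb6, which carries the caspase-like active site, was the most abundant beta subunit with 409.9 and 381.2 TPM in KK and 381.0 and 348 TPM in WT. The lower KK library and the higher WT library nearly coincided in TPM, and the call (log2 fold change 0.12 ± 0.05 SE, edgeR adjusted p = 0.035) was lost under 6 of the 12 alternatives. Psmb2 was the least abundant beta subunit, with 56.5 and 57.5 TPM in KK and 56.4 and 50.8 TPM in WT (log2 fold change 0.10 ± 0.10 SE, edgeR adjusted p = 0.43). Psmb3, another structural subunit, had 93.6 and 102 TPM in KK and 112 and 97.0 TPM in WT, which overlapped (log2 fold change -0.09 ± 0.09 SE, edgeR adjusted p = 0.44).

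The other catalytic subunits did not pass. Psmb5, the chymotrypsin-like subunit, had 171 and 161 TPM in KK and 169 and 168 TPM in WT. Psmb7, the trypsin-like subunit, had 234 and 204 TPM in KK and 211 and 209 TPM in WT. In each the WT values lay inside the range of the KK values. Psmb4, which closes the beta ring during assembly, had 355 and 345 TPM in KK and 330 and 343 TPM in WT, of which the coding isoforms made up 32.3% and 31.6% in KK and 37.9% and 36.6% in WT. The rest was nearly all a transcript annotated as retaining an intron, Psmb4-202, and the gene's counts did not differ by the test (log2 fold change -0.01 ± 0.04 SE, adjusted p = 0.85).

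The immune counterparts of the catalytic subunits, which interferon induces in other cells, were at a low level, and Psmb8 and Psmb9 were near 0. Psmb8, the counterpart of Psmb5, had 0.36 and 0.23 TPM in KK, from 6 and 3 counts, and was listed at 0 in both WT libraries. Psmb9, the counterpart of Psmb6, had 0.14 and 0.34 TPM in KK and 0 and 0.05 TPM in WT, and neither gene had enough counts to be tested. Psmb10, the counterpart of Psmb7, had 5.34 and 7.51 TPM in KK and 11.2 and 5.14 TPM in WT, on 41 and 57 counts in KK and 53 and 41 counts in WT (log2 fold change -0.02 ± 0.30 SE, edgeR adjusted p = 0.96). The coding sequences of these pairs were 64.6% to 68.9% identical, below the 74.9% of Psma8 and Psma7.

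**Figure D3:**
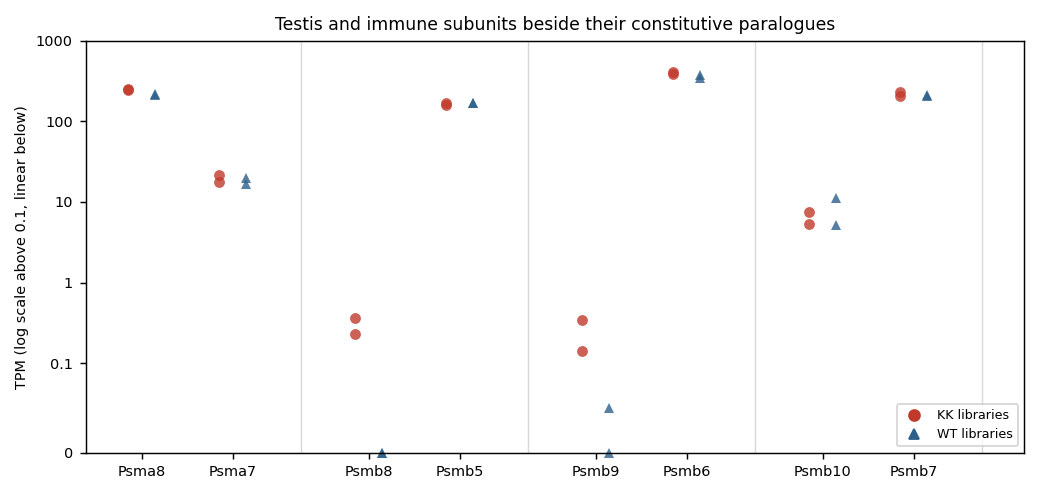
TPM of the testis subunit Psma8 and the immune subunits Psmb8, Psmb9 and Psmb10, each beside its constitutive paralogue, with 1 point per library, KK left of WT (log axis above 0.1 TPM, linear below). Psma8 sits more than 10-fold above Psma7 in all 4 libraries, whereas Psmb8 and Psmb9 lie below 0.4 TPM beside paralogues at 161 TPM or more.

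Summed over its 15 genes, the 20S core had 2530.2 and 2476 TPM in KK and 2390.1 and 2338 TPM in WT. Both KK sums lay above both WT sums. By the test 4 of the 15 were higher in KK (26.7%, beside 22.0% of all genes tested) and 0 were lower, and their log2 fold changes had a median of 0.06. The 4 called genes are part of the core sums, and Psma6 and Psmb6 each lost the call under 6 of the 12 alternatives. The 17 genes of the 19S particle summed to 3442 and 3402 TPM in KK and 3444 and 3441 TPM in WT. Of these 17, 0 were higher and 4 lower (23.5%, beside 21.7% of all genes tested), and their log2 fold changes had a median of -0.04. Psmd2, Psmd14 and Psmd3 were no longer called lower under library size alone. Among genes of at least 30 CPM, 4 of 13 core genes were higher (30.8%, beside 18.8%) and 4 of 16 genes of the 19S particle were lower (25.0%, beside 42.5%). Whether the core and the 19S particle differ was not tested.

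None of the 6 ATPases of the 19S base passed the test in either direction. In KK 0 were higher (beside 22.0% of all genes tested) and 0 were lower (beside 21.7%), and their log2 fold changes ran from -0.10 to 0.08. Their levels were far from equal although each is present once in the hexameric ring. Over all isoforms, Psmc3 exceeded Psmc6, the least abundant, 30- and 30.9-fold in the KK libraries and 33.8- and 32.3-fold in the WT libraries. Psmc6 had 36.0 and 33.6 TPM in KK and 30.3 and 32.0 TPM in WT. Its coding isoforms held only 16.04 and 14.35 TPM in KK and 17.04 and 18.53 TPM in WT, the opposite order. Psmc3 shares 215 exon bases with Slc39a13 on the opposite strand, and without strand information their reads cannot be told apart there. Over the whole gene Slc39a13 held 315 to 352 counts in KK and 315 to 323 counts in WT.

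Of the other base subunits, all of at least 30 CPM, 1 of 3 was lower in KK and 0 were higher. That 33.3% stands beside 42.5% lower among genes that abundant and 21.7% among all genes tested. Psmd2, a scaffold that docks ubiquitin shuttles, had 309 and 312 TPM in the KK libraries, against 334 and 333 TPM in the WT libraries. The libraries of the 2 genotypes did not overlap, at 638 ± 7.03 CPM in KK and 686.5 ± 2.02 CPM in WT (SD, n = 2 each; log2 fold change -0.11 ± 0.03 SE, edgeR adjusted p = 0.013). The call was lost under 2 of the 12 alternatives, with a log2 fold change of -0.02 (adjusted p = 0.64) under library size alone and -0.10 (adjusted p = 0.082) with limma. Psmd1, its companion scaffold and the least abundant of the 3, had 46.9 and 47.2 TPM in KK and 51.7 and 46.1 TPM in WT, and Psmd4, a ubiquitin receptor, had 229 and 229.8 TPM in KK and 239 and 235 TPM in WT. Neither passed.

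In the lid, whose 8 members all had at least 30 CPM, 3 were lower in KK (37.5%, beside 42.5% of genes that abundant and 21.7% of all genes tested) and 0 were higher. Psmd14 is the deubiquitinase that strips the ubiquitin chain, and Psmd7 is the subunit it is bound to. Psmd14 had 39.3 and 42.8 TPM in the KK libraries, against 48.8 and 51.3 TPM in the WT libraries, with no overlap (log2 fold change -0.25 ± 0.08 SE, edgeR adjusted p = 0.014). Psmd7 had 74.8 and 72.5 TPM in KK, against 86.4 and 84.6 TPM in WT, also with no overlap (log2 fold change -0.22 ± 0.06 SE, edgeR adjusted p = 0.0016). Psmd7 passed under all 12 alternatives, and Psmd14 missed the threshold under 3, among them without the first KK library. The lid scaffold Psmd3 had 72.6 and 76.0 TPM in KK and 79.7 and 82.9 TPM in WT (log2 fold change -0.12 ± 0.05 SE, edgeR adjusted p = 0.033), a call lost under 7 of the 12 alternatives. Psmd8 was the most abundant lid gene, with 504 and 501 TPM in KK and 507 and 504 TPM in WT (log2 fold change -0.01 ± 0.03 SE). Psmd6, Psmd11, Psmd12 and Psmd13 did not pass, with log2 fold changes of -0.04 to 0.04, and Psmd13 shares 342 exon bases with Sirt3 on the opposite strand, which held 1348 and 1358 counts in KK and 1161 and 1158 counts in WT.

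The activators Psme1 and Psme2 and the assembly factor Psmd10 held the largest log2 fold changes. Activators cap the core in place of the 19S particle: Psme1 and Psme2 form the interferon-inducible ring PA28 alpha-beta, Psme3 forms the nuclear ring PA28 gamma, and Psme4 is the single-chain PA200. Psme3 (chromosome 11, GRCm38, 101316213 to 101323537, plus strand) was among the members whose isoform use differed, and 3 of its transcripts carry its difference. Psme3-201 is the long coding transcript of 2664 bases, Psme3-205 a short coding transcript of 653 bases and Psme3-203 a processed transcript of 778 bases with no annotated coding sequence that starts within the gene. Their first exons differ, and the parts that set them apart are shown, from the transcripts of the reference annotation. Capitals mark the start codon in the first pair and, in the last, the AG that stands directly before the exon it shares with Psme3-201, in the position of an intron's last bases.
Psme3-201, coding part of exon 1, chr11:101316447-101316488, plus strand: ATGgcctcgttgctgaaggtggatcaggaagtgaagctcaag
Psme3-205, coding part of exon 1, chr11:101317021-101317095, plus strand: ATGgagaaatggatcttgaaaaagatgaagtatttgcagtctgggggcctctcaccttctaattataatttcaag
Psme3-203, bases of exon 1 absent from Psme3-201, chr11:101319834-101319911, plus strand: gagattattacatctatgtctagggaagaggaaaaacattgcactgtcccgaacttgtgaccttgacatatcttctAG

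Psme3-201 held 33.2% and 32.9% of the gene's TPM in the KK libraries, against 68.6% and 63.9% in the WT libraries, a mean difference of -33.1 points. Psme3-203, the transcript with the 78 bases of its own, held 26.5% and 29.2% in KK, against 3.23% and 6.1% in WT, a mean difference of 23.2 points. Neither transcript's share overlapped between the genotypes. In expected counts Psme3-203 had 184 and 185 in KK and 11.8 and 25.5 in WT, and Psme3-201 had 1173 and 1064 in KK and 1289 and 1358 in WT. Psme3-205 held 36.1% and 37.4% in KK and 26.4% and 27.3% in WT, from 183 and 172 counts in KK and 70.4 and 82.9 counts in WT. These splits are the authors' estimates from reads that the transcripts mostly share, and isoform shares were described without a test.

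The level of the gene depended on how isoforms were weighed. On the count scale Psme3 had 77.5 and 77.4 CPM in KK and 78.1 and 78.8 CPM in WT, and it did not pass (log2 fold change -0.02 ± 0.05 SE, edgeR adjusted p = 0.82). In TPM, which divide counts by an effective length that follows the isoform mix, it had 95.4 and 95.5 in KK and 58.0 and 61.9 in WT. With each library's effective length in the edgeR fit the log2 fold change was 0.65 (adjusted p = 0.00063), and with limma on log2(TPM + 1) it was 0.66 (adjusted p = 0.0034). The coding isoforms of Psme3 together held 67.7 and 67.2 TPM in KK and 55.4 and 56.6 TPM in WT, but they went opposite ways. Psme3-201 lay lower in KK, with 31.7 and 31.5 TPM against 39.8 and 39.5 TPM in WT. Psme3-205, whose annotated end lies inside exon 9 of Psme3-201, lay higher, with 34.4 and 35.7 TPM in KK against 15.3 and 16.9 TPM in WT.

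**Figure D4:**
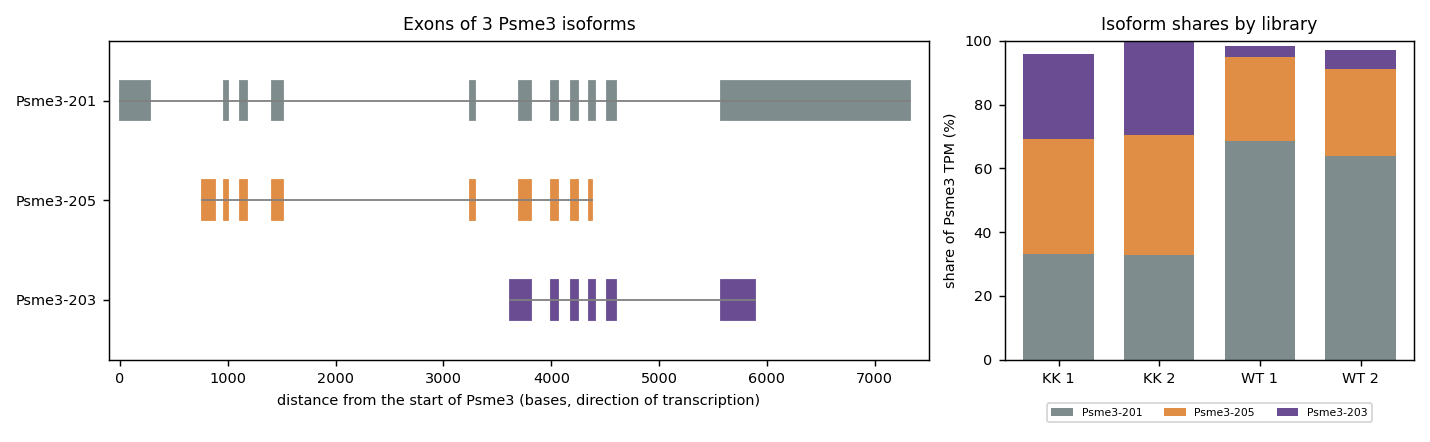
Left, exons of 3 Psme3 transcripts as boxes against the distance in bases from the start of the gene in the direction of transcription. Right, the share of Psme3 TPM held by each in every library, KK bars left of WT bars. The remainder to 100% belongs to other isoforms. Psme3-203 takes 26.5% and 29.2% in KK and 3.23% and 6.1% in WT, and Psme3-201 takes 33.2% and 32.9% in KK and 68.6% and 63.9% in WT.

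Psme4, the PA200 activator, was the most abundant activator, with 114 and 119 TPM in KK and 120.0 and 129 TPM in WT. It was slightly lower in KK with no overlap, at 542.3 ± 0.94 CPM in KK and 579.1 ± 27.2 CPM in WT (SD, n = 2 each; log2 fold change -0.10 ± 0.04 SE, edgeR adjusted p = 0.036), and the call was lost without the second WT library and under 4 further alternatives. The ratio of Psme4 to Psme3 in TPM was 1.19 and 1.24 in KK and 2.07 and 2.08 in WT, which follows the TPM of Psme3.

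Psme1 and Psme2 were scarce and higher in KK. Psme1 had 8.46 and 7.19 TPM in the KK libraries, against 2.83 and 2.75 TPM in the WT libraries, on 87 and 56 counts in KK and 31 and 32 counts in WT (log2 fold change 1.09 ± 0.28 SE, edgeR adjusted p = 0.0026). Psme2 had 6.5 and 3.83 TPM in KK, against 2.13 and 1.91 TPM in WT, on 45 and 23 counts in KK and 11 and 13 counts in WT (log2 fold change 1.40 ± 0.45 SE, edgeR adjusted p = 0.012). The groups did not overlap in either gene, but the first KK library was the higher one in both. Without it the log2 fold change was 0.80 for Psme1 (adjusted p = 0.073) and 0.90 for Psme2 (adjusted p = 0.26), and DESeq2 called neither. Psme2 also missed the threshold without the first WT library and with the effective length offset.

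The transcripts behind Psme1 differed too. Its coding transcript Psme1-208 had 55.8 and 29.7 counts in KK and 31 and 32 counts in WT, so the genotypes overlapped there. A transcript annotated as retaining an intron, Psme1-207, had 11.9 and 25.3 counts in KK and 0 in both WT libraries. Markers of macrophages and immune cells, which express Psme1 and Psme2, summed to 3.29 and 3.59 TPM in KK and 1.38 and 2.06 TPM in WT, with 2 of 4 tested markers higher in KK, Csf1r and Cd74. The other two did not pass: Ptprc had 0.09 and 0.16 TPM in KK and 0.20 and 0.29 TPM in WT, and Adgre1 had 0.36 and 0.20 TPM in KK and 0.43 and 0.15 TPM in WT. None of the 6 markers was at 0 in all libraries. Markers of spermatogonia were higher in KK for 7 of 8 tested, though their sums of 54.1 and 59.6 TPM in KK and 27.8 and 75.9 TPM in WT overlapped. Uchl1, called higher on counts, had 32.0 and 33.0 TPM in KK and 17.9 and 66.2 TPM in WT. The Leydig markers were higher for 6 of 7, as given above. Sertoli markers had 1 higher and 3 lower of 8 tested, peritubular and endothelial markers 2 higher and 0 lower of 5, and erythroid markers 0 higher and 0 lower of 2. The part of any of these cells in the change of Psme1 and Psme2 was not tested. Psme2 also has a near-identical copy, Psme2b, at 99.4% identity over 794 bases, so reads of the pair may be split between them.

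Psmf1, the inhibitor PI31, was abundant, with 302 and 322 TPM in KK and 313 and 297 TPM in WT. The genotypes overlapped, and it did not pass (log2 fold change -0.02 ± 0.04 SE, edgeR adjusted p = 0.73). A transcript annotated as retaining an intron, Psmf1-205, held 40.2% and 42.8% of its TPM in KK and 39.9% and 38.3% in WT, a little higher in both KK libraries.

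Of the 7 assembly factors, 1 was higher in KK (14.3%, beside 22.0% of all genes tested) and 0 were lower. Psmd10 (gankyrin; chromosome X, GRCm38, 140948429 to 140956728, minus strand) is a chaperone of the 19S base and the only X-linked member. It had 8.68 and 7.62 TPM in the KK libraries, against 2.74 and 2.89 TPM in the WT libraries, on 152 and 122 counts in KK and 42 and 47 counts in WT. The libraries did not overlap, and Psmd10 was 2.90-fold higher in KK (7.103 ± 0.658 CPM in KK and 2.45 ± 0.0923 CPM in WT, SD, n = 2 each; log2 fold change 1.53 ± 0.21 SE, edgeR adjusted p = 6.2e-07). It passed under all 12 alternatives, with log2 fold changes of 1.26 to 1.62. The X chromosome is normally silenced in pachytene spermatocytes, and of the 568 X-linked genes tested here 327 (57.6%) were higher in KK and 6 were lower, the median being 0.89 on the log2 scale.

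The other assembly factors did not pass. Psmg1, which with Psmg2 chaperones the alpha ring, was the most abundant, with 67.9 and 73.6 TPM in KK and 74.6 and 70.2 TPM in WT. Psmg2 had 60.9 and 64.6 TPM in KK and 59.1 and 57.5 TPM in WT. The second pair of alpha-ring chaperones was scarcer: Psmg3 had 7.36 and 10.3 TPM in KK and 11.02 and 9.88 TPM in WT, and Psmg4 had 14.9 and 14.3 TPM in KK and 19.1 and 15.03 TPM in WT, each with a standard error above 0.2 on the log2 scale. The base chaperones Psmd9 and Psmd5 stood at 39.9 and 40.5 TPM in KK and 39.0 and 38.1 TPM in WT for Psmd9, and at 6.99 and 6.86 TPM in KK and 8.0 and 7.89 TPM in WT for Psmd5.

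Isoform use was compared for the 32 members with at least 2 isoforms of 10 or more expected counts in at least 2 libraries. A shift, meaning an isoform whose share did not overlap between genotypes and whose means differed by at least 10 points, was found in 4 of the 32 (12.5%), against 23.7% of the 8025 genes of the series that met the same count rule. They were Psme3 and Psme1, described above, Psmc6 and Psmg4. The coding transcript Psmc6-201 held 44.5% and 42.7% in KK and 56.3% and 57.9% in WT, on 397 to 486 counts in KK and 451 to 520 counts in WT. Psmg4-201 held 48.4% and 50.6% in KK and 17.3% and 30.6% in WT, on no more than 18 counts in any library. With a minimum of 30 counts, 2 members of 23 remained, with no share of all genes to set beside them at that minimum.

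Proteasome genes are known to be raised together by NFE2L1 when proteolysis falls short, through an antioxidant response element in their promoters. RefSeq promoter windows of GRCm38.p6 (250 bases before and 50 after each start) were matched for 36 of the 44 members. Members without a matched window were not scanned, so their absence below does not mean that they lack a motif. The core of that element, TGACNNNGC on either strand, was found in 6 of the 36 (16.7%): Psmb5, Psmb6, Psmc6, Psmd12, Psmd9 and Psme4. It was found in 14% of all 27025 genes with such a window, and CCAAT, the box bound by NF-Y, in 12 of the 36 members (33.3%) and 41.1% of all. In Psmb6, a called core subunit, the match lies directly before the RefSeq start, and it ends the stretch of 250 bases printed here, in capitals.
Psmb6, bases before the RefSeq start, chr11:70525107-70525356, plus strand: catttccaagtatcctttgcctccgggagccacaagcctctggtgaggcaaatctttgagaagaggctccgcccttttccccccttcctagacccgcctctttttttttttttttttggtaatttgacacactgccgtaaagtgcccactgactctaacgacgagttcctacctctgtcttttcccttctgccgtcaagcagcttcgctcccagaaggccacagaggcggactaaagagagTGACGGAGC
A match is a run of letters and not a site, and the members that hold it included 1 that was higher (Psmb6), 1 that was lower (Psme4) and 4 that did not pass.

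Of 42 listed partners of the proteasome outside the member rule, 39 could be tested, and 5 were higher in KK (12.8%, beside 22.0% of all genes tested) and 14 lower (35.9%, beside 21.7%). Of the 29 partners of at least 30 CPM, 3 were higher (10.3%, beside 18.8% of genes that abundant) and 11 lower (37.9%, beside 42.5%). The unfoldase that hands substrates to the proteasome was among the lower ones. Vcp had 138 and 141 TPM in KK, against 171 and 175 TPM in WT (log2 fold change -0.30 ± 0.04 SE, edgeR adjusted p = 6.7e-08), and its cofactor Nploc4 had 118 and 131 TPM in KK, against 158 and 157 TPM in WT (log2 fold change -0.35 ± 0.04 SE, edgeR adjusted p = 1.1e-08). The shuttle factors, which carry ubiquitinated proteins, went both ways. Ubqlnl had 38.2 and 39.6 TPM in KK, against 76.7 and 70.9 TPM in WT (log2 fold change -0.92 ± 0.05 SE, adjusted p = 6.4e-14), and Rad23b was lower as well (log2 fold change -0.19, edgeR adjusted p = 0.00023). Ddi1 was higher, with 16.6 and 16.95 TPM in KK, against 10.7 and 12.2 TPM in WT (log2 fold change 0.55 ± 0.06 SE, edgeR adjusted p = 2e-08).

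Among the genes bound to the 19S particle, the deubiquitinase Uchl5 had 44.1 and 39.7 TPM in KK, against 56.0 and 53.1 TPM in WT (log2 fold change -0.38 ± 0.08 SE, edgeR adjusted p = 0.00028), while the lid peptide Sem1 had 14.95 and 11.9 TPM in KK and 10.5 and 11.2 TPM in WT (log2 fold change 0.32 ± 0.13 SE, adjusted p = 0.048). The ubiquitin receptor Adrm1, the 20S maturation factor Pomp, the deubiquitinase Usp14 and the ubiquitin genes Ubb and Rps27a did not pass. Of the regulators of proteasome genes, Nfe2l1 did not pass (log2 fold change -0.10, edgeR adjusted p = 0.33). Its activating protease Ddi2 was lower on the count scale (log2 fold change -0.46 ± 0.11 SE, edgeR adjusted p = 0.00086). In TPM the genotypes overlapped for Ddi2, with 4.63 and 6.27 in KK and 4.52 and 6.09 in WT. Nfe2l2 was higher from a low level, with 2.43 and 3.01 TPM in KK and 1.75 and 0.95 TPM in WT (log2 fold change 0.97 ± 0.27 SE, adjusted p = 0.0038). Uba1, the X-linked ubiquitin-activating enzyme, was higher as well (log2 fold change 0.78 ± 0.08 SE, adjusted p = 1.6e-09).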

How the data were processed

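RNA-seq was made from 4 libraries of pachytene spermatocytes, 2 KK and 2 WT, grouped by their titles. Bowtie, mm10 and GRCm38 are named in the submitters' processing notes, with no quantifier or annotation release. The gene and transcript tables list expected counts, TPM and FPKM, the last not used here, as deposited by the authors. The deposited expected counts are estimates, and were rounded to whole numbers for testing. The TPM values deposited by the authors and the isoform percent deposited by the authors were used as they stand.

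Gene symbols came from GENCODE M21, which held 55104 of 55364 identifiers. The main test was edgeR 4.0.16 (R 4.3.3): TMM factors, the default expression filter (16571 genes, all 44 members kept), and a quasi-likelihood fit with genotype as the only term, called at 0.05 after Benjamini-Hochberg adjustment over all genes tested. Standard errors are the log2 fold change over the square root of F. Alternatives were other scalings and filters, an effective length offset, a replicate block, DESeq2 1.42.0, limma 3.58.1 on log2(TPM + 1), and each library left out. The procedure was tested on simulated data.

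The members, the partner list, the markers and the rule for named genes (the paralogue pair, activators and inhibitor, called members past 0.32 on the log2 scale and the extremes of each role, with other called members added after their values were seen) were chosen with earlier results of these data known. The replicate numbers are not said to pair samples, and deviations of same-numbered libraries correlated at -0.0819. Shared exon bases were found for 11 members, 9 of them with a gene on the opposite strand, and 16 members had a transcript of another gene at 90% identity or more over 300 bases (blastn 2.17.0); reads there may be split. Of the 33 such genes, 5 had at least 10 counts in any library. Coding sequences were aligned with Biopython 1.88. Protein sequences were not used here. The values of some partner genes are not reported here.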

Additional observations from a re-analysis of the deposited data

How the results depend on the processing

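Psma8, Psmb1, Psmd7, Psmd10 and Ddx4 kept their direction and their call under all 12 alternatives run on each. Scaling to library size alone moved the median log2 fold change of all genes tested to 0.0869 and the share of calls that were higher to 64.2%, against 50.4% in the main analysis. It gave 11 members higher and 1 lower in place of 7 and 5, a member median of 0.069 in place of -0.015, and 10 partners higher and 8 lower in place of 5 and 14. DESeq2 gave 3 members higher and 3 lower, and 3 partners higher. It also called fewer of all genes, 2032 higher and 2496 lower of 16026 tested, in place of 3648 and 3589 of 16571. With the effective length offset 3 members and 7 partners were lower, beside 2283 of all genes tested in place of 3589. With limma on log2(TPM + 1) 2 members and 5 partners were lower, beside 1551 of all genes tested, and the member median was 0.015. Of the members of at least 30 CPM, DESeq2 called 5 (14.3%, beside 50% of all such genes) and limma 6 (17.1%, beside 34.8%). The main analysis called 9 (25.7%, beside 61.3%). Of these members, 1 changed by at least 0.32 on the log2 scale under library size alone (Psmb1), the effective length offset and limma (Psme3 in both). Of all such genes 23.0%, 28.2% and 26.2% did. Psma8 held 96.3% of the pair in expected counts in place of 92.4% of TPM. With a minimum of 30 counts 2 members had an isoform shift, again with no share of all genes beside them.

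Leaving out each library in turn gave 3 to 10 members higher, 3 to 5 lower, 5 to 12 called among those of at least 30 CPM, 4 to 6 with an isoform shift, 4 to 5 partners higher and 10 to 14 lower. The log2 fold change of Psma7, which did not pass, turned to -0.10 without the first KK library and -0.06 without the first WT library, and its range over the libraries left out was -0.10 to 0.18. Those of Psme3 and Psmf1 turned to 0.07 and 0.07 under library size alone, to 0.65 and 0.02 with the effective length offset, and to 0.66 and 0.03 with limma. The cause of these moves was not tested. The replicate block gave 7 members higher and 5 lower, a median of -0.015 over the members, and 6 partners higher and 14 lower, and it changed no count by over 1.5 times. With 2 libraries a group, genes of few counts such as Psmg3, Psmg4 and Psme2 have wide errors.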
